A study of Homo sapiens with 5 samples.

Results

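The ATP-binding cassette (ABC) genes were followed here in HepG2 cells depleted of LSD2. A gene was counted as a member when a probe set annotated to it alone carried a symbol made of ABC, a subfamily letter from A to G and a number. This rule gave 32 members, measured by 49 probe sets, among the 12893 genes of the series. RefSeq lists 46 symbols of this form, and the other 14 were not analysed here, among them the bile salt export pump gene ABCB11. The members belonged to subfamilies A (6), B (7), C (8), D (2), E (1), F (3) and G (5).

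ABC proteins share a nucleotide-binding domain that binds and hydrolyses ATP. Most use it to carry a substrate across a membrane, and in hepatocytes they load cholesterol and phospholipid onto lipoproteins, secrete lipids and conjugates into bile, expel drugs and move metabolites into organelles. Members of subfamilies E and F have no membrane-spanning part and act with ribosomes.

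HepG2 cells derive from a human liver tumour. The arrays compared cells given siRNA against LSD2, the histone H3 lysine 4 demethylase encoded by KDM1B, with cells given siRNA against GL3, a firefly luciferase sequence. Both groups were kept at 25 mM glucose with 10% serum, were transfected at about 50% confluence and were collected 3 to 4 days afterwards. LSD2 was targeted by 3 different siRNAs with 1 array each, and the control was hybridised on 2 arrays that the labels call technical replicates, so the control counted as 1 sample. The p-values reflect how the knockdown arrays vary, which takes in differences between siRNAs as well as technical variation. With 1 array for each siRNA these parts cannot be told apart, and the labels do not describe independently grown cultures.

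The deposited values are on a log scale read as log2, and each probe set had been centred on the median of its 5 arrays. The level of a gene was therefore not in the values, no member's level could be set against another's, and only differences between arrays were available. For the same reason the hepatic label could not be checked by marker levels. A value below is either a centred value of an array or a difference from the mean of the control arrays, as stated.

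The targeted gene KDM1B had centred values of 1.56 and 0.78 in the control and -1.43, -0.56 and -0.22 under siRNAs 1, 2 and 3. All 3 knockdown arrays lay below both control arrays, with a mean difference of -1.90 ± 0.63 (SD, n = 3 siRNAs; limma adjusted p = 0.9999), and it was -0.90 when 1 probe set per gene was taken by its suffix. Spiked poly-A controls separated the arrays into 2 sets that cut across the groups. Control array 1 with siRNAs 1 and 2 formed the first set, and control array 2 with siRNA 3 formed the second. Relative to control array 1, the median of 24 spike probe sets was -1.45 for control array 2 and -1.39 for siRNA 3 (log2). Of 8 hepatocyte markers, among them ALB, TTR and FGB, the median difference was -0.47 under siRNA 1, 0.63 under siRNA 2 and 0.96 under siRNA 3. The part of these 2 features in the values below was not tested, and the counts and the 6 members that did not overlap the control are also given against the control array of the same set.

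No ABC gene passed the test. The limma test with Benjamini-Hochberg adjustment over all genes called 0 of 32 members and 0 of 12893 genes (0%) at a threshold of 0.05, with no member below an adjusted p of 0.9999. Without adjustment, 0 members and 218 genes (1.69%) passed 0.05. Across the members the mean difference ran from -0.38 for ABCA2 to 0.99 for ABCB6, with a median of 0.09, against a median of -0.02 over all genes. Of the members 18 had a mean difference above 0 and 14 below. Of the 32 members 0 reached a difference of 1 on the log2 scale, which 871 of the 12893 genes did. A difference of 0.5 was reached by 6 members (18.8%) and by 23.9% of all genes. The median distance between the 2 control arrays was 0.41 among the members and 0.31 over all genes. The median size of the mean siRNA difference was 0.27 among the members and 0.26 over all genes. The first measure is between single arrays and the second between averages, which vary less, so their sizes are not directly comparable. Leaving out each array in turn, the sign turned at least once in 16 of the 32 members, and ABCB6 was the sole member whose difference always stayed within 1.5 times its value. The tests describe RNA of whole cultures, in which fewer cells of a kind and less RNA per cell cannot be told apart.

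**Figure D1:**
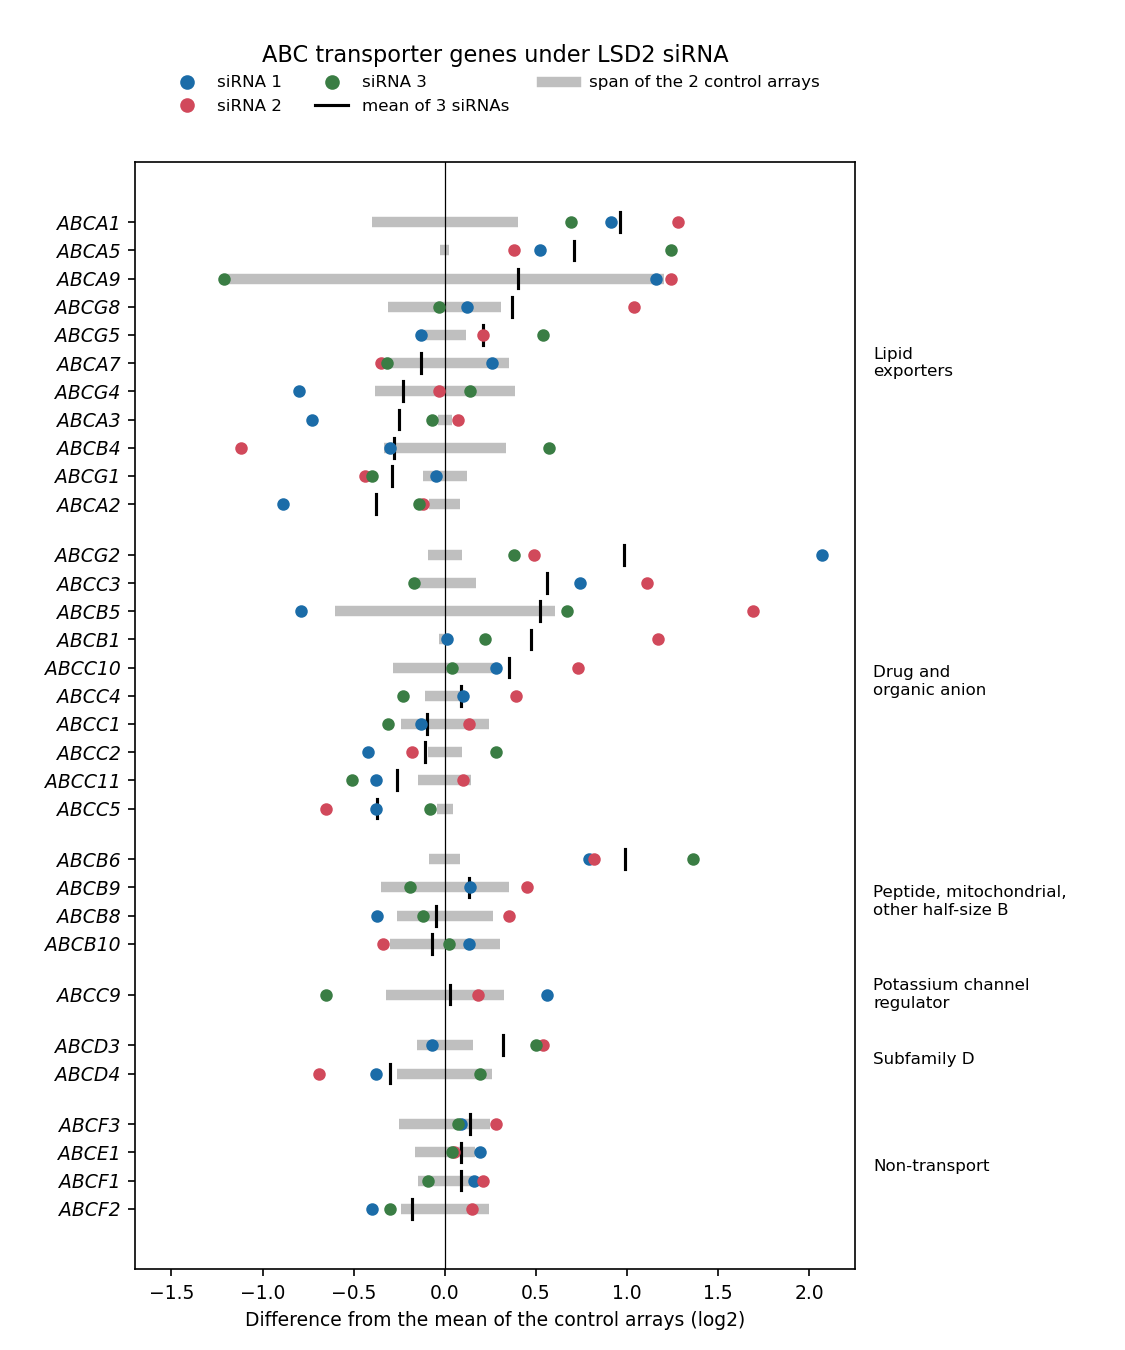
Difference from the mean of the control arrays (log2) for the 32 ABC members, grouped by role and ordered by mean. Coloured points are the siRNAs, black bars their mean, and grey bars span the 2 control arrays. In ABCA1, ABCA5, ABCB6 and ABCG2 all 3 points lie to the right of the grey bar, and in ABCA2 and ABCC5 all 3 lie to its left.

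In 4 members all 3 knockdown arrays lay above both control arrays, and in 2 members all 3 lay below both. The share above was 12.5% of the members, and over all genes it was 8.63%. The share below was 6.25%, and over all genes it was 10.1%. The 4 above were ABCA1, ABCA5, ABCB6 and ABCG2, and the 2 below were ABCA2 and ABCC5. By the looser measure of lying on 1 side of the control mean under every siRNA, 8 members were above (17.9% of all genes) and 3 below (18.2% of all genes). Against the control array of its own set, 8 members were above under each siRNA (15.4% of all genes) and 6 below (18.4% of all genes).

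**Figure D2:**
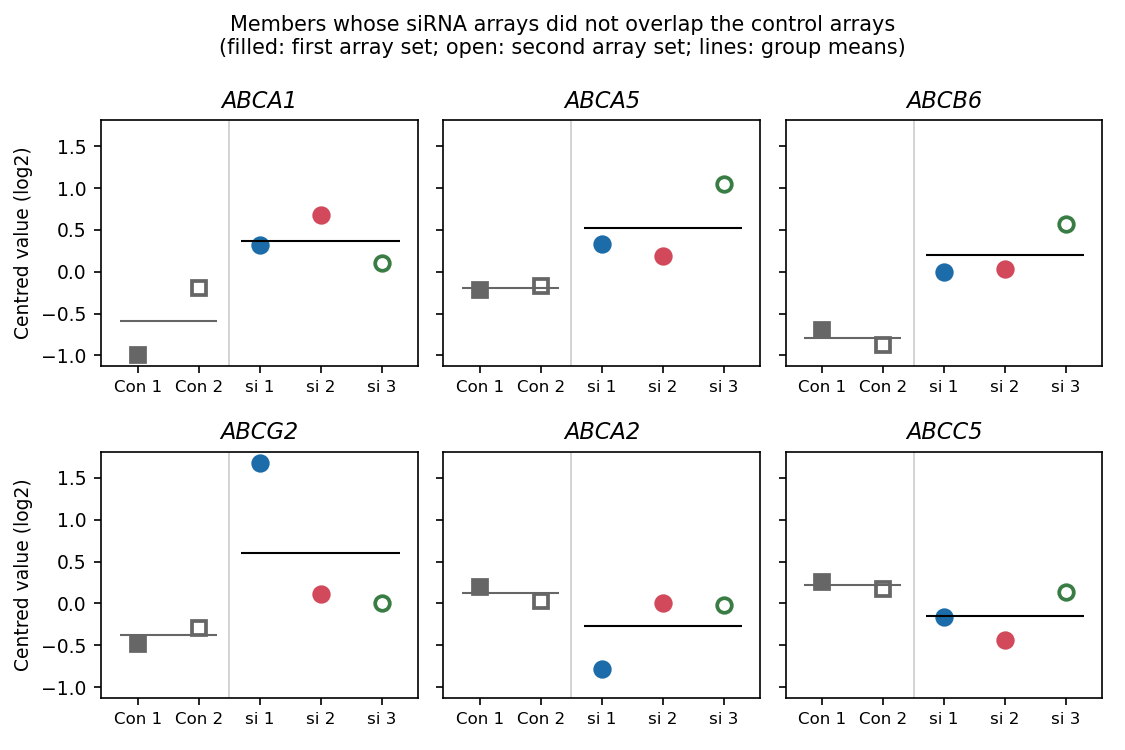
Centred value (log2) on each of the 5 arrays for the 6 members whose knockdown arrays did not overlap the control arrays. Squares are control arrays and circles siRNAs, filled for the first array set and open for the second, and lines are group means. ABCB6 shows the widest gap, 0.70, and in ABCA2 and ABCC5 the gap is 0.03.

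ABCA1 exports cholesterol and phospholipid to lipid-poor apolipoprotein A-I, the step that forms nascent high-density lipoprotein. Its centred values were -0.99 and -0.19 in the control and 0.32, 0.68 and 0.10 under siRNAs 1, 2 and 3. The knockdown arrays all lay above the control arrays, by at least 0.29, but the control arrays themselves stood 0.80 apart. The mean difference was 0.96 ± 0.29 (SD, n = 3 siRNAs), or 195% of the control, with a limma 95% interval from -0.15 to 2.07. The 2 probe sets of ABCA1 gave 0.74 and 1.19, and the knockdown arrays lay above both control arrays in each of them. Against the control array of its own set ABCA1 was higher by 1.31 with siRNA 1, by 1.68 with siRNA 2 and by 0.29 with siRNA 3. The mean was 0.56 without control array 1, where the value of -0.99 was read.

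ABCA5, an endolysosomal protein counted with the lipid transporters, had centred values of -0.22 and -0.17 in the control and 0.33, 0.19 and 1.05 under siRNAs 1, 2 and 3. Its control arrays lay close together, 0.05 apart, and siRNA 3 was the farthest from them. The mean difference was 0.71 ± 0.46 (SD, n = 3 siRNAs), with a limma 95% interval from -0.58 to 2.01, and it was 0.45 without siRNA 3. Within array sets ABCA5 was higher by 0.55, 0.40 and 1.21. The probe sets gave 0.63 and 0.79, although in the first of these siRNA 2 stood only 0.01 above the control mean, at a centred value of -0.12 between the control values of 0.00 and -0.26.

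ABCB6, a transporter of porphyrins found in mitochondria and other membranes, had the highest mean difference of the 32 members. Its centred values were -0.70 and -0.88 in the control and 0.00, 0.03 and 0.57 under siRNAs 1, 2 and 3. The lowest knockdown array exceeded the higher control array by 0.70, the widest gap of the 6 members that did not overlap. The mean difference was 0.99 ± 0.32 (SD, n = 3 siRNAs), or 199% of the control, with a limma 95% interval from -0.14 to 2.13. Within array sets ABCB6 stood at 0.70, 0.74 and 1.45 under siRNAs 1, 2 and 3, so the difference was present in both sets. ABCB6 was read by 1 probe set, and 95.8% of all genes had a mean difference no higher.

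ABCG2, the breast cancer resistance protein, exports drugs, urate and porphyrins. Its centred values were -0.48 and -0.29 in the control and 1.68, 0.11 and 0.00 under siRNAs 1, 2 and 3. The array of siRNA 1 stood far above the other 2 knockdown arrays, which were themselves above both control arrays. The differences were 2.07, 0.49 and 0.38, with a mean of 0.98 ± 0.94 (SD, n = 3 siRNAs) and a limma 95% interval from -1.04 to 3.00. Without siRNA 1 the mean was 0.44, so the size of the difference rested on that array, which was also the knockdown array with the lowest hepatocyte markers, and their part in it was not tested. Within array sets ABCG2 was higher by 2.16, 0.59 and 0.29, and it was read by 1 probe set.

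The letters upstream of these 4 genes are shown because their arrays did not overlap the control. Each run is the 250 bases before an annotated transcription start in the RefSeq promoter table, written 5′ to 3′ on the strand of the gene. Capitals mark matches to 6 motifs searched on both strands: the direct-repeat element of the liver X receptor (LXR), the antioxidant response core TGACNNNGC, the E-box CACGTG, the GC box GGGCGG, the TATA box TATAAA and the CCAAT box CCAAT. Matches may overlap, as the E-box and the antioxidant core do in ABCB6. ABCG2 has 5 windows in the table and the one farthest upstream is printed.
ABCA1, GRCh38.p14 chr9:104928156-104928405, minus strand: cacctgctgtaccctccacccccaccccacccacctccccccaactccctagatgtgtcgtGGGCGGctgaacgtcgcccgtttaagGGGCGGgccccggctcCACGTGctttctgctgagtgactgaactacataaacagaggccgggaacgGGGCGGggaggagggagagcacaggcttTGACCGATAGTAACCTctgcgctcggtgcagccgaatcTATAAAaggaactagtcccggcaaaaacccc
ABCA5, GRCh38.p14 chr17:69327134-69327383, minus strand: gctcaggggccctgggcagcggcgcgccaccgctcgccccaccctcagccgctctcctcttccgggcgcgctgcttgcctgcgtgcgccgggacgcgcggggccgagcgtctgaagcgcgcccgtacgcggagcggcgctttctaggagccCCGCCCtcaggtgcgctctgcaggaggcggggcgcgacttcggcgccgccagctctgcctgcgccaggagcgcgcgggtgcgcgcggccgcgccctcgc
ABCB6, GRCh38.p14 chr2:219218959-219219208, minus strand: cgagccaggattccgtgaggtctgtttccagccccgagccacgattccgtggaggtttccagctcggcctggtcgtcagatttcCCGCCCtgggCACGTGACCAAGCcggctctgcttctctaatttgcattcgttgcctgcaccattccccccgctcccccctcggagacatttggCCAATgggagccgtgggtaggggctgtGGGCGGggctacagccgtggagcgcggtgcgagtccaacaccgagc
ABCG2, GRCh38.p14 chr4:88231627-88231876, minus strand: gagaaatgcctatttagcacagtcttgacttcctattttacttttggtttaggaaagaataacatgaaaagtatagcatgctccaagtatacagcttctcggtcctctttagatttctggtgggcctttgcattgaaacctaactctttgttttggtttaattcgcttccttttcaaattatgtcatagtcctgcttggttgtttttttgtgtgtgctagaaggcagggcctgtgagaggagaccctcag

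The ABCA1 window held the LXR element as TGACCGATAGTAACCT, at positions -69 to -54, counted back from -1 just before the start, with the TATA box at -31 to -26, the E-box at -147 to -142 and 3 GC boxes. The LXR pattern was written to fit the site known in this promoter, so the match is no independent result. It occurred in 27 of 34943 windows (0.0773%), and among the 27 members with a window ABCA1 alone held it. ABCG1, the other sterol exporter known as an LXR target, is not in that table. The ABCB6 window held the E-box, the antioxidant core, 2 GC boxes and a CCAAT box. The 27 members had 39 windows. The antioxidant core stood in 23.1% of them and in 10.9% of all windows, the E-box in 20.5% and 6.32%, and the GC box in 61.5% and 42.5%. The TATA box stood in 12.8% of the members' windows and 10.8% of all, and the CCAAT box in 15.4% and 32.0%. Base composition differed too, with a median of 64.8% G and C in the members' windows and 58.0% in all, and no test was made of these shares. In ABCA5 a GC box was the sole match, and the printed ABCG2 window held none, while 2 overlapping windows nearer the coding part held an E-box and 2 GC boxes. No motif was found in all 4 printed windows. Counting every window of a gene, all 4 genes held a GC box, as did 20 of the 27 members with a window. Binding was not measured.

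The differences of the lipid exporters, ABCA1 and ABCA5 included, lay on both sides of the control. Of 17 listed lipid exporters 11 were measured, 5 with a mean difference above 0 and 6 below. Their median was -0.13, with -0.05, 0.07 and -0.03 under siRNAs 1, 2 and 3, against -0.02 over all genes. This median depended on each array: it lay between -0.04 and 0.06 when any 1 of the 5 was left out. It was -0.18 without ABCA9.

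ABCG1, which loads cholesterol onto mature high-density lipoprotein, had centred values of 0.00 and 0.24 in the control and 0.07, -0.32 and -0.28 under siRNAs 1, 2 and 3. It stood below the control mean under each siRNA, at -0.29 ± 0.22 (SD, n = 3 siRNAs), the other side from ABCA1, but siRNA 1 lay between the control arrays. ABCG1 was among 13 members described outside the naming rule, after their values were seen. ABCA2, an endolysosomal member linked to sphingolipid and cholesterol handling, had centred values of 0.20 and 0.03 in the control and -0.78, 0.00 and -0.02 under siRNAs 1, 2 and 3. Its mean difference of -0.38 ± 0.44 (SD, n = 3 siRNAs) was the lowest of the members and came mostly from siRNA 1, and without siRNA 1 it was -0.13. Within array sets it read -0.98, -0.20 and -0.05.

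ABCG5 and ABCG8 encode the subunits of 1 sterol exporter of the canalicular membrane and lie next to each other in the genome. ABCG5 had centred values of 0.00 and -0.23 in the control and -0.24, 0.10 and 0.42 under siRNAs 1, 2 and 3. ABCG8 had -0.43 and 0.19 in the control and 0.00, 0.92 and -0.15 under the siRNAs. The partners did not share an order: the highest array was siRNA 3 for ABCG5 and siRNA 2 for ABCG8. Their mean differences were 0.21 ± 0.33 and 0.37 ± 0.58 (SD, n = 3 siRNAs), each no wider than its spread between siRNAs. ABCG8 was 0.04 without siRNA 2 and 0.06 without control array 1, and ABCG5 was 0.04 without siRNA 3.

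ABCB4, the floppase that supplies phosphatidylcholine to bile, was read by 2 probe sets that disagreed. One had centred values of 0.00 and 1.27 in the control and -0.73, -1.57 and 1.56 under siRNAs 1, 2 and 3, a mean difference of -0.88. The other had -0.06 and 0.00 in the control and 0.75, -0.05 and 0.20 under the siRNAs, a mean difference of 0.32. ABCB4 thus had no settled direction, and a probe set annotated to both ABCB4 and its genomic neighbour ABCB1 was left out. ABCA9 had centred values of 0.05 and -2.36 in the control and 0.00, 0.09 and -2.36 under siRNAs 1, 2 and 3. Control array 2 and siRNA 3, the second array set, both read -2.36, far below the first set. Against the control array of the same set ABCA9 differed by -0.05, 0.04 and 0.00, so that its mean difference of 0.40 ± 1.39 (SD, n = 3 siRNAs) has no direction. ABCA7, a phospholipid transporter, had the smallest difference of the lipid exporters at -0.13, with centred values of 0.67 and -0.04 in the control and 0.58, -0.03 and 0.00 under the siRNAs. The remaining lipid exporters were ABCA3, which fills lamellar bodies with surfactant lipid, at -0.25, and ABCG4, a sterol exporter known from brain, at -0.23, and in both siRNA 1 was the lowest array.

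The drug and organic anion exporters had the highest median of the roles with 4 or more measured members. Of 12 listed genes 10 were measured, 6 with a mean difference above 0 and 4 below. The median was 0.22, with -0.06, 0.44 and -0.02 under siRNAs 1, 2 and 3, so that siRNA 2 alone had a high median. Against the control mean, the median under siRNA 2 was also the highest of the 3 over all members, this role included, at 0.21. The same held among the organelle members of subfamily B, at 0.40. Against the control array of the same set, the median under siRNA 2 was 0.36 for this role. It was then 0.07 over all members and 0.09 for the organelle members of subfamily B. The median of the drug and organic anion exporters was -0.06 when siRNA 2 was left out, -0.02 when control array 2 was, and -0.01 within the first array set. The difference between these exporters and the lipid exporters was not tested.

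**Figure D3:**
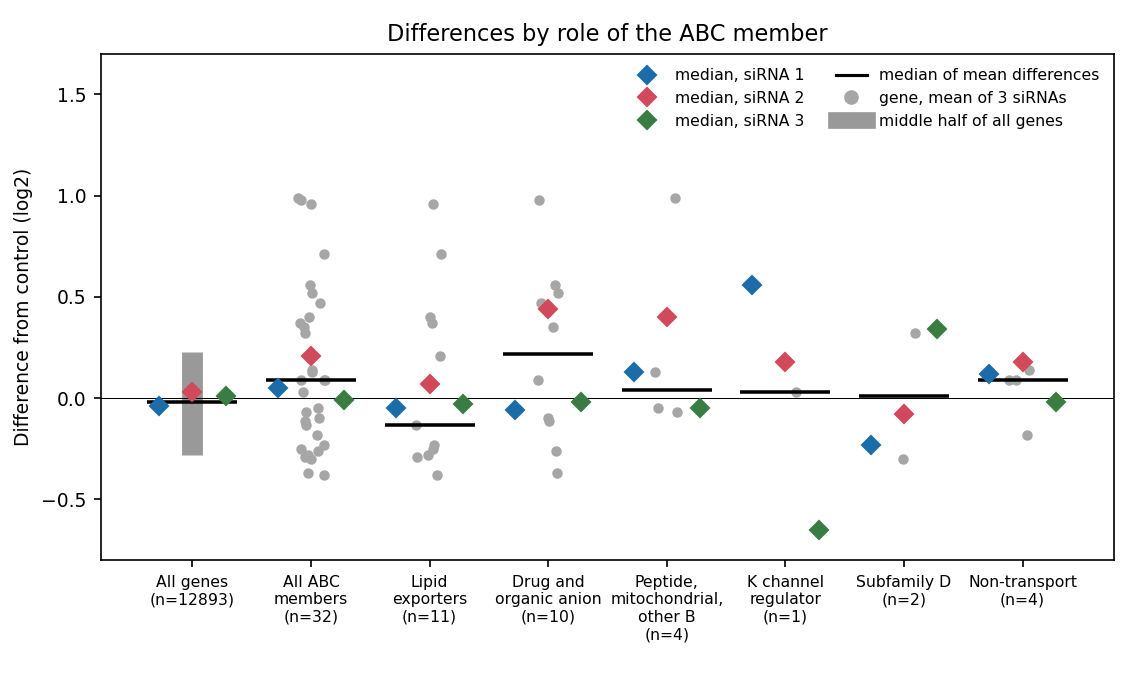
Differences from control (log2) by role. Grey points are members (mean of 3 siRNAs), black bars the median of those means, diamonds the median under each siRNA, and the grey column at the left the middle of the distribution of all genes, from -0.28 to 0.23. The diamond of siRNA 2 is the highest for all members and for every role with 4 or more members. It lies at 0.44 for drug and organic anion exporters and at 0.40 for the organelle members of subfamily B. The black bars of every role lie inside the range of the grey column, which is a range of single genes and wide for a median of several.

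ABCC3, a basolateral exporter of glucuronide and bile acid conjugates, had centred values of -0.04 and -0.38 in the control and 0.52, 0.89 and -0.38 under siRNAs 1, 2 and 3. The arrays of siRNAs 1 and 2 lay above both control arrays, and siRNA 3 read as low as control array 2. The mean difference was 0.56 ± 0.66 (SD, n = 3 siRNAs), and its 2 probe sets gave 0.54 and 0.58. The mean was 0.28 without siRNA 2 and 0.92 without siRNA 3. Both probe sets of ABCC3 put siRNA 2 highest, but under siRNA 3 they differed, at -0.59 and 0.25 from the control mean. ABCC2, which secretes bilirubin glucuronides and other conjugates across the canalicular membrane, had centred values of 0.00 and 0.19 in the control and -0.33, -0.09 and 0.37 under the siRNAs. Its mean difference was -0.11 ± 0.36 (SD, n = 3 siRNAs), and it was 0.05 without siRNA 1. The mean differences of ABCC3 and ABCC2 thus lay on different sides of the control without either exceeding its spread, and that of ABCC2 had no settled side. ABCC2 shares the canalicular membrane with ABCB1, ABCB4, ABCG5 and ABCG8.

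ABCB1 encodes P-glycoprotein, the multidrug exporter of the canalicular membrane. Its centred values were -0.09 and -0.02 in the control and -0.05, 1.12 and 0.17 under siRNAs 1, 2 and 3. The array of siRNA 2 stood apart in both probe sets, at 0.86 and 1.48 above the control mean, while siRNA 1 lay between the control arrays. The mean difference was 0.47 ± 0.62 (SD, n = 3 siRNAs), and it was 0.11 without siRNA 2. ABCB5, a related multidrug member, ranged from -1.40 under siRNA 1 to 1.08 under siRNA 2, with siRNA 3 at 0.06 and control values of 0.00 and -1.21, and its mean of 0.52 ± 1.25 (SD, n = 3 siRNAs) has no direction.

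ABCC5 exports cyclic nucleotides and other organic anions. Its centred values, averaged over 3 probe sets, were 0.26 and 0.17 in the control and -0.16, -0.44 and 0.14 under siRNAs 1, 2 and 3. All 3 knockdown arrays lay below both control arrays, but siRNA 3 by 0.03 alone, and the mean difference was -0.37 ± 0.29 (SD, n = 3 siRNAs). It was -0.23 without siRNA 2, and within array sets it read -0.42, -0.70 and -0.03. The 3 probe sets gave -0.75, -0.36 and -0.01, and the knockdown arrays lay below both control arrays in the first of them only. ABCC4, which exports nucleotides and conjugated steroids, had the smallest difference of this role at 0.09 ± 0.31 (SD, n = 3 siRNAs), with control values of 0.08 and -0.14 and siRNA values of 0.08, 0.36 and -0.26. The remaining 3, the glutathione conjugate exporter ABCC1 and its relatives ABCC10 and ABCC11, stood at -0.10, 0.35 and -0.26, and in each of them the siRNA arrays overlapped the control arrays.

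Among the organelle members of subfamily B, ABCB6 stood alone. Of 5 listed genes 4 were measured, with a median of 0.04. ABCB8 and ABCB10, transporters of the inner mitochondrial membrane, stood at -0.05 ± 0.36 and -0.07 ± 0.24 (SD, n = 3 siRNAs). ABCB8 had centred values of 0.39 and -0.14 in the control and -0.24, 0.47 and 0.00 under siRNAs 1, 2 and 3, with siRNA 1 below both control arrays, siRNA 2 above both and siRNA 3 between them. The lysosomal peptide transporter ABCB9 had 0.21 and -0.49 in the control and 0.00, 0.30 and -0.34 under the siRNAs, a difference of 0.13 ± 0.32 (SD, n = 3 siRNAs). The peptide transporters of antigen presentation belong to the same subfamily under other symbols. For 1 of them, TAP1, the control values were -0.40 and -1.09 and the siRNA values 0.09, 0.13 and 0.00, all above both control arrays, with a mean difference of 0.82 ± 0.07 (SD, n = 3 siRNAs; limma unadjusted p = 0.0813, adjusted p = 0.9999). Its partner TAP2 stood at 0.02 ± 0.30 (SD, n = 3 siRNAs), and the chloride channel gene CFTR was not analysed here.

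ABCC9, a regulatory subunit of ATP-sensitive potassium channels and no transporter of its own, had 2 probe sets on different sides of the control, at -0.57 and 0.63. The gene value of 0.03 ± 0.62 (SD, n = 3 siRNAs) averages these, with control values of 0.11 and -0.54 and siRNA values of 0.35, -0.03 and -0.86, of which siRNA 1 lay above the control arrays, siRNA 2 between them and siRNA 3 below. In the lower probe set siRNA 3 alone was low, at -2.04, with the other 4 arrays between -0.33 and 0.23.

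In subfamily D, ABCD3 imports branched-chain and dicarboxylic acyl-CoA and bile acid intermediates into peroxisomes, and ABCD4 takes part in the release of cobalamin from lysosomes. ABCD3 had centred values of -0.31 and 0.00 in the control and -0.23, 0.39 and 0.34 under siRNAs 1, 2 and 3. The arrays of siRNAs 2 and 3 lay above both control arrays and siRNA 1 between them, with a mean of 0.32 ± 0.34 (SD, n = 3 siRNAs) that was 0.17 without control array 1. ABCD4 had -0.05 and 0.47 in the control and -0.17, -0.48 and 0.40 under the siRNAs, with a mean of -0.30 ± 0.45 (SD, n = 3 siRNAs) that was -0.03 against control array 1 alone and -0.56 against control array 2 alone. The 2 genes thus stood on different sides of the control, neither beyond its spread by a test.

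The mean differences of the non-transport members lay close to the control mean and to each other. All 4 listed genes were measured, and their mean differences ran from -0.18 to 0.14, with a median of 0.09 and medians of 0.12, 0.18 and -0.02 under siRNAs 1, 2 and 3. The median SD between siRNAs was 0.14 in this role, 0.35 over all members and 0.39 over all genes. That SD leaves out the control arrays, whose median distance was 0.40 in this role and 0.41 over all members. Against the control array of the same set ABCE1 read 0.35, 0.22 and -0.13 under siRNAs 1, 2 and 3. On that measure ABCF2 read -0.64, -0.08 and -0.06. ABCE1, which splits ribosomes for recycling, stood at 0.09 ± 0.08, and ABCF1, a factor of translation initiation, at 0.09 ± 0.16 (SD, n = 3 siRNAs). ABCF1 had centred values of 0.00 and -0.30 in the control and 0.01, 0.05 and -0.24 under siRNAs 1, 2 and 3, with siRNA 3 between the control arrays. ABCF2 had 0.43 and -0.04 in the control and -0.20, 0.35 and -0.10 under the siRNAs, the 1 member of this role with a mean below 0, at -0.18 ± 0.29 (SD, n = 3 siRNAs). ABCF3, a relative of the yeast translation regulator Gcn20, had 0.16 and -0.34 in the control and 0.00, 0.19 and -0.02 under the siRNAs, at 0.14 ± 0.12 (SD, n = 3 siRNAs).

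By subfamily the medians of the mean differences were 0.13 for A, 0.13 for B, -0.04 for C, 0.01 for D, 0.09 for E, 0.09 for F and 0.21 for G. Members differed within each of the larger subfamilies: A ran from -0.38 to 0.96, B from -0.28 to 0.99 and G from -0.29 to 0.98. Subfamily C was the narrowest of the larger ones, from -0.37 to 0.56. None of these medians lay outside the middle of the distribution of all genes, from -0.28 to 0.23. That range is of single genes and is wide for a median of several, so it does not show whether a subfamily shifted.

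Of the members 14 were measured by more than 1 probe set, and in 11 of them the probe sets gave mean differences of the same sign. The 3 exceptions were ABCB4, ABCC4 and ABCC9. In ABCD4, ABCE1, ABCC3, ABCB1 and ABCC1 the probe sets lay within 0.07 of each other, and in ABCB4 and ABCC9 they lay 1.21 apart, wider than any mean difference of a member.

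**Figure D4:**
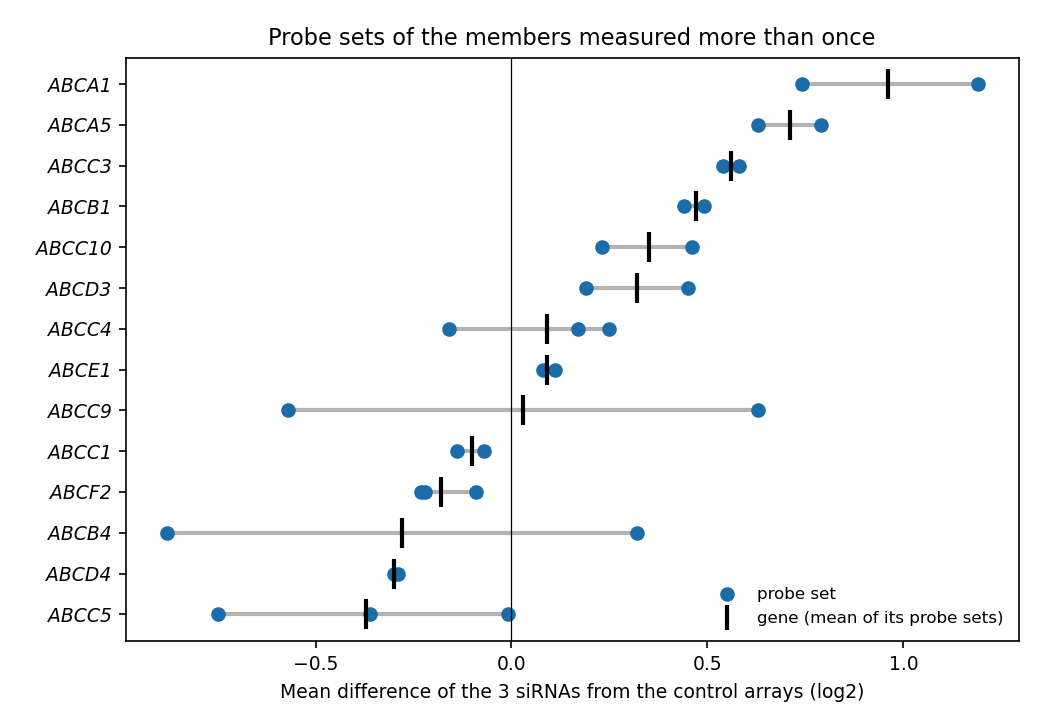
Mean difference of the 3 siRNAs from the control arrays (log2) for each probe set (points) of the 14 members measured more than once, with the gene value as a black bar. The probe sets of ABCB4 and ABCC9 lie 1.21 apart on either side of 0, and those of ABCA1 both lie above 0, at 0.74 and 1.19.

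Genes that act on or with the transporters were read from lists, none of whose members passed the test (0 called, limma adjusted p under 0.05). The nuclear receptors and other factors that control ABC genes had a median of 0.04 over 12 measured of 18, and 1 of the 12 lay above both control arrays, near the 8.63% of all genes. It was RXRA, the partner of LXR and of the bile acid and xenobiotic receptors, with control values of -0.02 and -0.35 and siRNA values of 0.38, 0.49 and -0.02, the last above control array 1 by an amount that rounds to 0.00, and a mean difference of 0.47 ± 0.27 (SD, n = 3 siRNAs). SREBF2, a regulator of sterol synthesis genes, stood at 0.40 ± 0.46, and the LXR gene NR1H3, named after its values were seen, at 0.05 ± 0.43 (SD, n = 3 siRNAs).

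Among 9 measured of 10 other LXR targets the median was 0.11, 7 had a mean difference above 0 and 2 below, 2 lay above both control arrays (8.63% of all genes) and 1 below both (10.1% of all genes). APOE stood at 0.89 ± 0.10 (SD, n = 3 siRNAs), with control values of -0.26 and -1.09 and siRNA values of 0.32, 0.12 and 0.22, all above both control arrays. LPCAT3, a phospholipid-remodelling acyltransferase gene named after its values were seen, also lay above both control arrays, at 0.33 ± 0.18 (SD, n = 3 siRNAs). The desaturase gene SCD stood at 0.62 ± 0.65 (SD, n = 3 siRNAs), with siRNA 1 below the control mean at -0.06. MYLIP, named with SREBF1 after their values were seen and encoding a ubiquitin ligase for the low-density lipoprotein receptor, lay below both control arrays, with differences of -0.40, -0.47 and -0.65 and a mean of -0.51 ± 0.13 (SD, n = 3 siRNAs), and SREBF1 stood at -0.01. These were the 2 targets below 0.

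The partners in lipid and bile acid transport had a median of 0.46 over 14 measured of 15, with 4 above both control arrays (8.63% of all genes) and 0 below (10.1% of all genes). SLC51B, a subunit of the basolateral bile acid exporter, had control values of -1.41 and -1.37 and siRNA values of 0.03, 0.07 and 0.00, a mean difference of 1.42 ± 0.03 (SD, n = 3 siRNAs; limma unadjusted p = 0.0129, adjusted p = 0.9999). The organic anion uptake carrier SLCO2B1 stood at 1.09 ± 0.64 (SD, n = 3 siRNAs), also above both control arrays. No ABC member reached the difference of SLC51B.

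The translation partners of subfamilies E and F had a median of 0.18 over 9 genes, with EIF2S2, a subunit gene of initiation factor eIF2, at -0.38 ± 0.45 and the ribosome rescue factor PELO at 0.35 ± 0.27 (SD, n = 3 siRNAs). The peroxisomal and cobalamin partners of subfamily D had a median of 0.32 over 7 measured of 8. In that list the thiolase gene ACAA1 had control values of -0.17 and -0.27 and siRNA values of 0.00, 0.90 and 1.25, a mean of 0.93 ± 0.64 (SD, n = 3 siRNAs) that lay above both control arrays, and SLC27A2, a very long chain acyl-CoA synthetase gene, stood at 0.44 ± 0.75. The channel partners KCNJ8 and KCNJ11 of the potassium channel regulators were not analysed here. Of the markers of other cell types, 1 of 3 fibroblast, 2 of 3 leukocyte and 1 of 3 endothelial genes were measured. The fibroblast collagen COL1A1, named after its values were seen, stood at 3.32, 1.27 and -0.84 under siRNAs 1, 2 and 3. The leukocyte genes PTPRC and CD3E had mean differences of 0.05 and -0.56, and the endothelial gene PECAM1 had -0.32. Levels of these markers were not in the values, and their part in the ABC results was not tested.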

How the data were processed

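Total RNA from HepG2 cells was hybridised to 5 GeneChip arrays, 3 for LSD2 siRNA and 2 for the control. The deposited table held 30137 probe sets as values read as log2, summarised by the authors with MAS5 per the submitters' processing notes. Values ran from -7.05 to 7.47, each probe set had a median of 0 over its arrays, and neither filtering nor scaling is stated in the sources used. Symbols came from the platform annotation, in which 24151 probe sets had 1 symbol and 1175 several, and those of all 49 member probe sets matched current gene records. Promoter windows came from the RefSeq promoter table.

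Probe sets with 1 symbol were averaged per gene, the control arrays were averaged to 1 sample, and limma 3.58.1 (lmFit, then eBayes; R 4.3.3) gave two-sided tests of 12893 genes with 2 residual degrees of freedom and Benjamini-Hochberg adjustment at 0.05. The spread of the single control was taken to equal that between knockdowns. The fit was tested on simulated data. No filter on low values was applied, so all 32 members were tested. Plots used matplotlib 3.10.9 with pandas 2.3.3 in Python 3.11.15. The number of arrays limits the precision.

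Members and lists were chosen with earlier results of these data known. Named members were those whose siRNA arrays lay above both or below both control arrays, the 2 largest and the smallest mean difference of each role, and ABCG5 with ABCG8. KDM1B was named as the target, with the 2 largest of each related list. Others were chosen after their values were seen. Alternatives were 1 probe set per gene by suffix, quantile normalization, no probe sets at a floor and separate control arrays. Further ones were the array set as a block, a replicate block and each array left out. The first array set alone was added after seeing the data. A floor meant 2 or more arrays at an exactly equal lowest value, which held for 16 probe sets, none of a member. The ABCA9 values that read -2.36 were equal only after rounding, so this alternative left ABCA9 unchanged.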

Additional observations from a re-analysis of the deposited data

How the results depend on the processing

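Under each of the 12 alternatives limma called 0 members at an adjusted p under 0.05, and from 0 to 2 members and from 213 to 707 genes passed 0.05 without adjustment. Counts above and below the control arrays exist for 11 alternatives (for the array set, against the control array of that set). Most of these could not move a member that did not overlap the control. Leaving out arrays, array sets and separate control arrays keep its order by construction, and no member had a floor probe set by the exact rule. Quantile normalization could change the order, as could 1 probe set by suffix for members with several. Under both, ABCA1, ABCA5, ABCB6 and ABCG2 lay above and ABCA2 below. ABCC5 lay below with quantile normalization but not by suffix. The 4 members above and 2 below became 7 and 1 with 1 probe set by suffix (9.04% and 9.71% of all genes), 8 and 6 within array sets (15.4% and 18.4%), and 10 and 8 in the first array set alone (25.9% and 35.1%). With 1 array left out they ranged from 4 to 10 above and from 3 to 6 below, with 13.7% to 23.6% of all genes above and 16.2% to 24.5% below. The titles number the arrays, but nothing says that numbers pair cultures, and the difference between control arrays 1 and 2 correlated at 0.03 with that between siRNAs 1 and 2 across genes. A fit with the replicate block used siRNAs 1 and 2 alone, called 0 genes and gave a lipid exporter median of -0.04.

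With 1 array left out the medians ranged from -0.03 to 0.21 for all members, from -0.04 to 0.06 for lipid exporters, from -0.06 to 0.35 for drug and organic anion exporters, from 0.01 to 0.35 for the organelle members of subfamily B and from -0.08 to 0.15 for non-transport members. In the first array set alone the median was -0.04 for all members and -0.02 for non-transport members. Signs turned at several sizes of difference. ABCC9 stood at -0.57 with 1 probe set by suffix and -0.11 with the array set as a block, where ABCA9 stood at 0.00. With quantile normalization ABCB10 stood at 0.05 and SREBF1 at 0.02, TAP2 at -0.08 by suffix, and ABCC1 at 0.00 and NR1H3 at -0.05 under the replicate block. In the first array set alone ABCA9 stood at 0.00, ABCB5 at -0.16, ABCB9 at -0.06, ABCB10 at 0.19, ABCF3 at -0.07, ABCG5 at -0.07 and NR1H3 at -0.27. With 1 array left out the ranges that crossed 0, over all 32 members, were -0.48 to 0.22 for ABCA7, -0.80 to 1.60 for ABCA9, -0.71 to 0.14 for ABCB4, -0.08 to 1.18 for ABCB5, -0.31 to 0.22 for ABCB8, -0.22 to 0.48 for ABCB9, -0.37 to 0.23 for ABCB10, -0.34 to 0.14 for ABCC1, -0.30 to 0.05 for ABCC2, -0.06 to 0.25 for ABCC4, -0.30 to 0.37 for ABCC9, -0.07 to 0.26 for ABCE1, -0.06 to 0.24 for ABCF1, -0.42 to 0.06 for ABCF2, -0.11 to 0.40 for ABCF3 and -0.61 to 0.15 for ABCG4, and among related genes -0.17 to 0.30 for NR1H3, -0.29 to 0.26 for SREBF1 and -0.13 to 0.17 for TAP2. Without control array 2, TAP1 and APOE stood at 0.48 and SREBF2 at 0.08, and without siRNA 2 SLC27A2 stood at 0.01. The cause of each was not tested. Signal over background is unknown, since the levels are not in the values.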
